A study of Mus musculus with 6 samples.

Results

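The germline and meiosis genes described here are 41 genes, chosen by name, whose products act in the piRNA pathway, in meiosis or elsewhere in germ cells. Their transcripts were summed to genes with the names of GENCODE mouse M21, which gave all 41 among 53390 genes, and 40 of the 41 were among the 18177 genes with enough counts to be tested. Poly(A) RNA-seq was done on TKO mouse embryonic stem cells (mESCs), which carry knockouts of Dnmt1, Dnmt3a and Dnmt3b and were derived from the male J1 line of strain 129S4/SvJae. TKO-serum mESCs were kept in medium with 15% FCS and LIF at 500 U/ml. TKO-2i mESCs were kept in N2B27 medium with the MEK inhibitor PD0325901 at 1 µM, the Gsk3 inhibitor CHIR99021 at 3 µM and LIF at 1000 U/ml. Both groups share the genotype, a feeder-free culture on gelatin and the presence of LIF, and each has 3 libraries that the labels call biological replicates, so the p-values below measure the spread between these cultures of one line. Serum, inhibitors and LIF dose changed together and cannot be told apart. The TKO-serum libraries held 38274042, 51932739 and 44827609 estimated counts and the TKO-2i libraries 46228700, 44180642 and 43896549.

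In mammals many genes of the germ line have CpG-rich promoters that become methylated as the embryo implants, and methylation helps to keep them silent in somatic cells. Their products protect germ cell DNA from transposons through piRNAs, small RNAs bound by PIWI proteins, and pair and recombine the chromosomes in meiosis. mESCs transcribe some of these genes in culture, and mESCs without DNA methyltransferases are known to transcribe more of them. No cells with methylated DNA were analysed here, so a level in TKO-serum is a level in unmethylated cells and was not compared with a methylated state. The question was which of the 41 genes were transcribed in TKO-serum and how each differed in TKO-2i.

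The knocked-out genes were looked at first. Dnmt1 transcripts stood at 25.7, 28.6 and 27.9 TPM (a level as a share of all transcripts, corrected for transcript length) in TKO-serum and at 29.1, 34.6 and 29.3 TPM in TKO-2i. Dnmt3a transcripts stood at 21.3, 23.0 and 22.7 TPM in TKO-serum and at 4.30, 5.19 and 4.54 TPM in TKO-2i. Dnmt3b transcripts stood at 18.8, 20.9 and 20.7 TPM in TKO-serum and at 6.71, 9.53 and 8.49 TPM in TKO-2i. All 3 genes thus gave RNA in all 6 libraries, and since the labels do not say which part of each allele is lost, these sums over whole genes do not check the genotype. The cofactor Dnmt3l, which has no catalytic activity, was at 499 ± 11 TPM (SD, n = 3) in TKO-serum and at 46.9 ± 2.01 TPM in TKO-2i. Uhrf1, which recruits Dnmt1 to replicated DNA, was at 179 ± 6.42 TPM in TKO-serum and at 325 ± 16.7 TPM in TKO-2i. The 5 mESC markers Pou5f1, Sox2, Nanog, Zfp42 and Esrrb were all expressed, with a summed level of 2803 ± 38.8 TPM in TKO-serum and 2464 ± 85.2 TPM in TKO-2i.

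Between TKO-serum and TKO-2i some of the 41 genes rose and a larger number fell. With expression defined as at least 1 TPM in every library of a group, 34 of the 41 genes (82.9%) were expressed in TKO-serum and 27 (65.9%) in TKO-2i, near the 74.3% and 70.4% of all genes tested. All 27 were among the 34. The 7 genes expressed in TKO-serum and not in TKO-2i were Mael, Piwil4, Sycp1, Meiob, Tex101, Dpep3 and Slc25a31, a number that hangs on the threshold, since it was 5 at 0.5 TPM and 11 at 2 TPM. The 7 genes expressed in neither medium were Tdrd1, Tdrd9, Piwil1, Sycp2, Spo11, Mei1 and Brdt. The median level of the 41 genes was 8.04 TPM in TKO-serum and 2.96 TPM in TKO-2i, beside 7.53 and 7.08 TPM over all genes tested.

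Of the 40 genes tested, 30 passed an adjusted p threshold of 0.05, where 62.5% of all genes tested did so. Of these, 9 were higher in TKO-2i, a direction that 31.9% of all genes tested took, and 21 were lower, which 30.6% of all genes tested were. The fall was at least 2-fold in 18 of the 40 genes, beside 15.6% of all genes tested, while Dazl was the 1 gene with a rise of at least 2-fold, beside 7.72% of all genes tested. Tdrd1 and Meiob are among the 21 and the 18. They were kept for the test by their TKO-serum counts, so they do not bear on these counts of falls. The median log2 fold change was -0.53 over the 40 genes and 0.01 over all genes tested. Without TKO-2i replicate 3 the median of the 40 genes was -0.31.

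**Figure D1:**
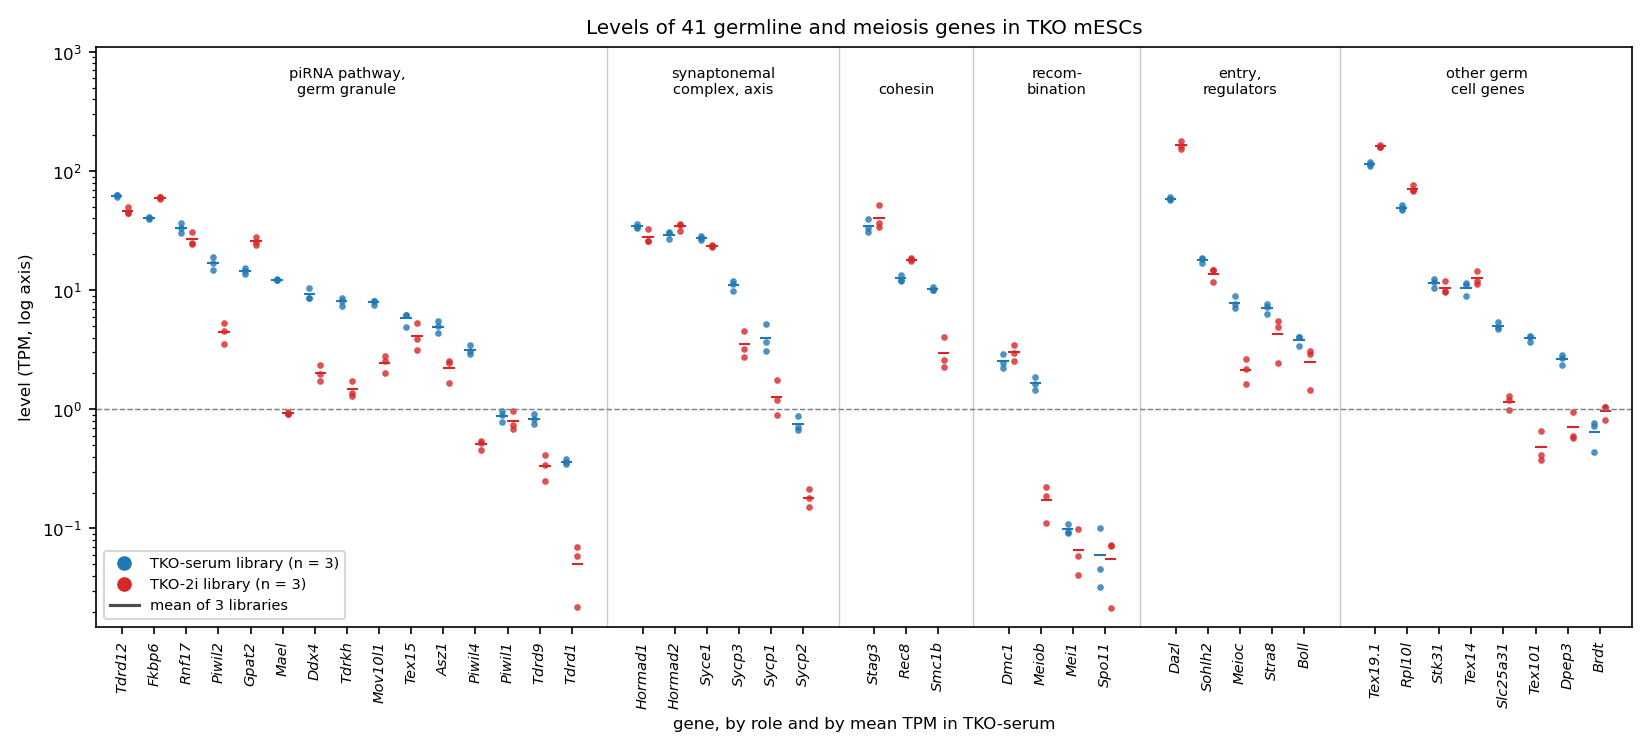
Levels in TPM on a log axis of the 41 genes in each of 3 TKO-serum and 3 TKO-2i libraries, grouped by role, with short lines at the mean of each group and a dashed line at 1 TPM. Dazl and Tex19.1 stood highest in TKO-2i, and Mael, at 12.2 TPM on average in TKO-serum, lay below 1 TPM in all 3 TKO-2i libraries.

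The genes were grouped by their mean level over the 6 libraries, which a rise raises and a fall lowers. The change itself thus helps to set the class, so the counts by class do not show how direction went with the level in TKO-serum. Gpat2, at 14.5 TPM on average in TKO-serum, is in the highest class through its rise. Tdrkh, at 8.04 TPM in TKO-serum, is in the class of 1 to 5 TPM through its fall. Among the 11 genes with a mean of at least 20 TPM over the 6 libraries, 7 rose and 2 fell, and their log2 fold changes had a median of 0.41. Of all genes tested at that level 42.1% rose and 19.3% fell, with a median of 0.11. Among the 12 genes between 5 and 20 TPM, 2 rose and 8 fell, with a median of -1.55, where 40.3% of all genes tested rose and 27.6% fell, with a median of 0.09. None of the 10 genes between 1 and 5 TPM rose and 7 fell, with a median of -1.90, where 27.2% of all genes tested rose and 38.9% fell, with a median of -0.13. None of the 7 tested genes under 1 TPM rose and 4 fell, with a median of -1.35. This was less negative than in the classes of 1 to 5 and 5 to 20 TPM. Of all genes tested under 1 TPM 14.1% rose and 41.7% fell, with a median of -0.46. Of the 4 that fell, Tdrd1 and Meiob were near or under 10 counts in the TKO-2i libraries. They were kept for the test by their TKO-serum counts, so they do not bear on direction in this class. With at least 10 counts asked of every library, 37 of the 41 genes were tested and their median log2 fold change was -0.37. The summed level of the 41 genes was 657, 698 and 690 TPM in TKO-serum and 761, 828 and 749 TPM in TKO-2i. It was thus higher in every TKO-2i library, but Tex19.1 and Dazl made up much of it. Without these 2 genes, a sum taken after their levels had been seen, it was 509 ± 17.8 TPM in TKO-serum and 454 ± 32.3 TPM in TKO-2i.

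**Figure D2:**
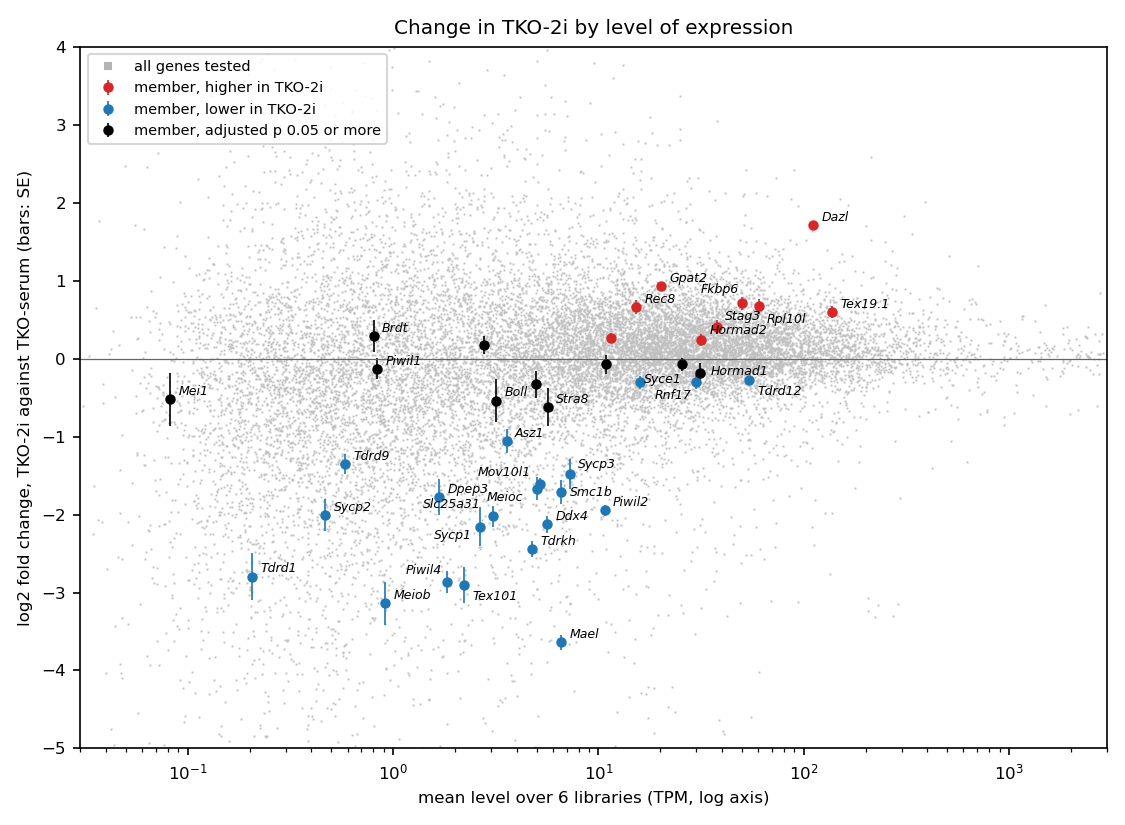
Log2 fold change of TKO-2i against TKO-serum plotted on the mean level over 6 libraries in TPM (log axis), for all genes tested (grey) and for the 40 tested germline and meiosis genes, coloured by the outcome of edgeR's test, with bars for the SE; genes beyond the axes are not drawn. The 9 genes that rose all had means above 10 TPM, and 19 of the 21 that fell lay below 20 TPM. A rise raises this mean and a fall lowers it, so the axis does not give the level in TKO-serum.

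Of the piRNA pathway and germ granule genes, 11 of 15 fell and 2 rose, where 30.6% of all genes tested fell and 31.9% rose. Tdrd1 among the 11 was kept for the test by its TKO-serum counts, so it does not bear on the count of falls. The summed level of the 15 genes was 220 ± 9.78 TPM in TKO-serum and 178 ± 10.5 TPM in TKO-2i. Mael, which acts in transposon silencing and piRNA production, stood at 12.1, 12.5 and 12.1 TPM in TKO-serum and at 0.908, 0.956 and 0.907 TPM in TKO-2i. It had the largest fall of the 41 genes, with a log2 fold change of -3.64 (SE 0.09, adjusted p = 3.48e-08 by the quasi-likelihood test of edgeR, adjusted after Benjamini and Hochberg over all genes tested). The groups lay far apart and varied little within themselves. Piwil2, a PIWI protein of fetal and adult male germ cells, had a mean of 17 ± 2.15 TPM in TKO-serum and stood at 4.56, 5.30 and 3.55 TPM in TKO-2i (log2 fold change -1.95, SE 0.07). Piwil4, the nuclear PIWI protein that guides DNA methylation to transposons, stood at 2.93, 3.06 and 3.45 TPM in TKO-serum and at 0.545, 0.526 and 0.451 TPM in TKO-2i (log2 fold change -2.87, SE 0.14). Every TKO-2i library was below every TKO-serum library for both. Protein-coding transcripts held 100% of Piwil4 TPM in TKO-serum and 57.9% in TKO-2i. Piwil1, the PIWI protein of pachytene cells, was low in both media, between 0.680 and 0.974 TPM over the 6 libraries, and its groups overlapped.

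The helicases of the pathway fell as well. Ddx4, the helicase that marks germ granules, stood at 8.64, 10.5 and 8.60 TPM in TKO-serum and at 1.98, 2.34 and 1.74 TPM in TKO-2i (log2 fold change -2.13, SE 0.11). Mov10l1, which feeds precursor RNAs into piRNA production, stood at 8.17, 7.57 and 8.15 TPM in TKO-serum and at 2.54, 2.83 and 2.00 TPM in TKO-2i (log2 fold change -1.61, SE 0.07). Both kept 1 to 3 TPM in TKO-2i, with no overlap between the groups. Of the Tudor domain proteins, which bind methylated arginines of PIWI proteins, Tdrkh, Tdrd12, Tdrd1 and Tdrd9 fell by unequal amounts. Tdrkh went from 8.04 ± 0.676 to 1.47 ± 0.232 TPM (log2 fold change -2.44, SE 0.10), and Tdrd12 from 62.0 ± 1.64 to 46.4 ± 3.43 TPM (log2 fold change -0.28, SE 0.05). Tdrd1 and Tdrd9 lay below 1 TPM in all 6 libraries, with log2 fold changes of -2.79 (SE 0.30) and -1.35 (SE 0.13), and in TKO-2i Tdrd1 rested on 4 to 11.2 estimated counts a library. Asz1, a protein of the mitochondrial surface where piRNAs are made, fell from 4.93 ± 0.556 to 2.22 ± 0.486 TPM (log2 fold change -1.06, SE 0.16).

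Fkbp6 and Gpat2 went the other way. Fkbp6, a cochaperone in the loading of PIWI proteins, stood at 40.8, 40.6 and 39.3 TPM in TKO-serum and at 60.3, 58.3 and 60.9 TPM in TKO-2i. Its log2 fold change was 0.71 (SE 0.08, edgeR's adjusted p = 0.000103), and the groups did not overlap. The transcripts of Fkbp6 did not all go the same way. The longest one, which spans the whole gene, stood at 14.6, 11.9 and 11 TPM in TKO-serum and at 34.6, 33.2 and 33.4 TPM in TKO-2i. A shorter protein-coding transcript, which starts 1 base away, stood at 25.4, 27.4 and 26.4 TPM in TKO-serum and at 23.0, 22.3 and 23.9 TPM in TKO-2i. The shorter transcript thus led in each TKO-serum library and the longer one in each TKO-2i library, a difference that was not tested. The other two transcripts of Fkbp6 were much less abundant, with means of 0.0879 and 1.28 TPM in TKO-serum and 0.408 and 2.61 TPM in TKO-2i. Gpat2, a mitochondrial protein needed for piRNA production, stood at 13.7, 14.6 and 15.3 TPM in TKO-serum and at 25.2, 27.7 and 24.1 TPM in TKO-2i (log2 fold change 0.93, SE 0.06, adjusted p = 2.69e-06 by edgeR's test). It was higher in every TKO-2i library.

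Rnf17 fell by a small amount and Tex15 did not pass. Rnf17, a Tudor domain protein of male germ cells, stood at 33.2 ± 3.16 TPM in TKO-serum and 26.7 ± 3.40 TPM in TKO-2i, with a log2 fold change of -0.30 (SE 0.09, edgeR's adjusted p = 0.0163). Its fall did not pass without TKO-2i replicate 3 (-0.26, adjusted p = 0.0531) or without TKO-serum replicate 2 (-0.25, adjusted p = 0.0659), and over 15 alternative settings edgeR, DESeq2 and limma gave adjusted p-values from 0.000308 to 0.0742. Most Rnf17 RNA was in transcripts that GENCODE does not call protein-coding, which left protein-coding transcripts with 38.4% of its TPM in TKO-serum and 37.2% in TKO-2i. Tex15, which acts with Piwil4, was at 5.79 ± 0.736 TPM in TKO-serum and 4.10 ± 1.10 TPM in TKO-2i and did not pass (log2 fold change -0.33, SE 0.17, edgeR's adjusted p = 0.129). TKO-2i replicate 2 was nearest to TKO-serum. Without it the value was -0.52 with edgeR's adjusted p = 0.00478, and without TKO-2i replicate 1 it was -0.20 with adjusted p = 0.284, in a range of 0.00171 to 0.367 over the alternatives.

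Among genes of the synaptonemal complex and chromosome axis, which hold paired chromosomes together, 3 of 6 fell and 1 rose, and these 4 of 6 are near the 62.5% of all genes tested that passed. Sycp3, of the lateral element, stood at 9.80, 11.8 and 11.3 TPM in TKO-serum and at 2.76, 4.58 and 3.19 TPM in TKO-2i (log2 fold change -1.48, SE 0.19). Sycp1, the transverse filament, stood at 3.09, 5.23 and 3.65 TPM in TKO-serum and at 1.19, 1.75 and 0.901 TPM in TKO-2i (log2 fold change -2.16, SE 0.25). Both were lower in all 3 TKO-2i libraries, although in TKO-2i Sycp1 rested on 25 to 43 estimated counts a library. Protein-coding transcripts held 100% of Sycp1 TPM in TKO-serum and 60.2 ± 35.6% in TKO-2i. Sycp2, the partner of Sycp3, was below 1 TPM throughout and fell by 2.01 on the log2 scale (SE 0.20). Syce1, of the central element, and the axis proteins Hormad1 and Hormad2 were much more abundant, at 23.5 to 34.3 TPM on average in either medium. Syce1 had a log2 fold change of -0.07 (SE 0.08) and Hormad1 of -0.18 (SE 0.13), and neither passed. The TPM values of Syce1 did not overlap between the groups, and on the scale of log2(TPM + 1) it was lower by 0.22 with limma's adjusted p = 0.0149, in a range of 0.0149 to 0.853 over the alternatives. Without TKO-2i replicate 2 the value of Hormad1 was -0.34 with edgeR's adjusted p = 0.00311, and without TKO-2i replicate 1 it was -0.10 with adjusted p = 0.507, in a range of 0.00311 to 0.538 over the alternatives. Hormad2 rose by 0.24 on the log2 scale (SE 0.07, edgeR's adjusted p = 0.0195), less firmly than others. It did not pass without TKO-2i replicate 3 (0.21, adjusted p = 0.0739) or without TKO-serum replicate 1 (0.19, adjusted p = 0.0755). Nor did it pass from protein-coding transcripts alone (0.17, edgeR's adjusted p = 0.0828), in a range of 0.00473 to 0.0938 over the alternatives. Its most abundant transcript, Hormad2-205, covers part of the gene and held 61.4% of its TPM in TKO-serum and 68.3% in TKO-2i. Hormad2-205 stood at 16.7, 18.9 and 18.3 TPM in TKO-serum and at 21.7, 23.2 and 25.3 TPM in TKO-2i. Hormad2-202, which spans more of the gene, overlapped between the groups, and this contrast was not tested.

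The 3 meiotic cohesin subunits, parts of the ring that ties sister chromatids, differed among themselves. Smc1b stood at 9.95, 10.7 and 10 TPM in TKO-serum and at 2.27, 4.03 and 2.58 TPM in TKO-2i (log2 fold change -1.71, SE 0.15, edgeR's adjusted p = 2.15e-05). Rec8, the kleisin subunit, stood at 12.0, 12.3 and 13.4 TPM in TKO-serum and at 18.5, 18.2 and 17.6 TPM in TKO-2i (log2 fold change 0.66, SE 0.09, edgeR's adjusted p = 0.000287). Every TKO-2i library was below TKO-serum for Smc1b and above it for Rec8. Stag3 stood at 31.1, 33.2 and 39.7 TPM in TKO-serum and at 34.0, 51.6 and 36.3 TPM in TKO-2i. Its TPM values overlapped between the groups, while its normalised counts did not and gave a log2 fold change of 0.41 (SE 0.09, edgeR's adjusted p = 0.00344). On the scale of log2(TPM + 1) it was 0.21 with limma's adjusted p = 0.339, in a range of 4.43e-05 to 0.378 over the alternatives. The most abundant Stag3 transcript, Stag3-207, was a processed transcript without a coding annotation and held 24.9% of the gene's TPM in TKO-serum and 20.6% in TKO-2i. Protein-coding transcripts held 48.6% of Stag3 TPM in TKO-serum and 48% in TKO-2i, and from them alone the rise did not pass.

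The genes of meiotic recombination were low. Spo11, which cuts DNA to start recombination, had 1, 4 and 5 estimated counts in TKO-serum and 1, 6 and 4 in TKO-2i, too few for a test and near the 3 counts a library that a gene at 0 could still give. Mei1, needed for those breaks, had 13 to 15 estimated counts a library in TKO-serum and 6 to 13 in TKO-2i and did not pass (log2 fold change -0.52, SE 0.34). With each library left out the value of Mei1 ran from -0.8223 to -0.3078. Dmc1, the meiotic recombinase, stood at 2.21, 2.90 and 2.46 TPM in TKO-serum and at 2.56, 3.49 and 2.99 TPM in TKO-2i, with a log2 fold change of 0.18 (SE 0.12) that did not pass. The value of Dmc1 ran from 0.1075 to 0.2423 with each library left out. It was 0.0417 from protein-coding transcripts alone and 0.3446 from length-scaled TPM. Meiob passed, but it was kept for the test by its TKO-serum counts, and no other gene of the 4 passed, where 62.5% of all genes tested did. Meiob, which binds single-stranded DNA at the breaks, stood at 1.64, 1.46 and 1.86 TPM in TKO-serum and at 0.110, 0.188 and 0.223 TPM in TKO-2i (log2 fold change -3.14, SE 0.27, edgeR's adjusted p = 1.83e-05), and its 4 to 8 estimated counts a library in TKO-2i limit how well that size is known.

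Of the regulators of meiotic entry and germ cell RNA, Dazl rose most of all 41 genes. Dazl, an RNA-binding protein that promotes translation in germ cells, stood at 58.3, 60.2 and 56.9 TPM in TKO-serum and at 153, 179 and 162 TPM in TKO-2i. Its log2 fold change was 1.71 (SE 0.06, edgeR's adjusted p = 1.34e-07), with every TKO-2i library far above TKO-serum. In TKO-serum the mean level of Dazl was below those of Tex19.1 and Tdrd12 and above those of the other genes among the 41, and its libraries overlapped those of Tdrd12. In TKO-2i it had the highest mean, at 165 ± 13 TPM, but its libraries overlapped those of Tex19.1 at 161 ± 3.19 TPM. Protein-coding transcripts held 96.1% of Dazl TPM in TKO-serum and 94.8% in TKO-2i. Its relative Boll went from 3.84 ± 0.356 to 2.50 ± 0.912 TPM and did not pass (log2 fold change -0.54, SE 0.28). With each library left out the value of Boll ran from -0.7066 to -0.2655.

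Meioc, which with Ythdc2 keeps cells in meiotic prophase, stood at 7.10, 8.88 and 7.65 TPM in TKO-serum and at 2.19, 2.64 and 1.62 TPM in TKO-2i (log2 fold change -1.67, SE 0.14, edgeR's adjusted p = 1.67e-05). Stra8, which retinoic acid induces at meiotic entry, stood at 7.63, 6.30 and 7.23 TPM in TKO-serum and at 5.49, 4.95 and 2.42 TPM in TKO-2i. Its groups did not overlap, but TKO-2i replicate 3 lay well below the other TKO-2i libraries, and the log2 fold change of -0.62 (SE 0.24) just missed the threshold (edgeR's adjusted p = 0.0506). Without TKO-2i replicate 1 it was -0.90 with edgeR's adjusted p = 0.00675 and without TKO-2i replicate 2 it was -0.67 with adjusted p = 0.0365. Without TKO-2i replicate 3 it was -0.36 with edgeR's adjusted p = 0.0505, in a range of 0.00675 to 0.125 over the alternatives, of which 8 of 15 passed. Sohlh2, a transcription factor of early germ cells, went from 18 ± 0.894 to 13.8 ± 1.72 TPM, with a log2 fold change of -0.30 (SE 0.08, edgeR's adjusted p = 0.0124). It did not pass without TKO-2i replicate 3 (-0.23, adjusted p = 0.0521) or without TKO-serum replicate 3 (-0.27, adjusted p = 0.0550), in a range of 0.00121 to 0.0550 over the alternatives.

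Of the 8 other germ cell genes, 3 rose and 3 fell, near the shares of 31.9% and 30.6% over all genes tested. Tex19.1, which acts against retrotransposons, stood at 110, 118 and 114 TPM in TKO-serum and at 165, 159 and 159 TPM in TKO-2i (log2 fold change 0.60, SE 0.07, edgeR's adjusted p = 0.000114). It was the most abundant of the 41 genes in TKO-serum and higher still in each TKO-2i library. Rpl10l, an intronless ribosomal protein gene that stands in for X-linked Rpl10 in spermatocytes, stood at 51.7, 46.9 and 49.3 TPM in TKO-serum and at 76.4, 70.0 and 67.5 TPM in TKO-2i (log2 fold change 0.67, SE 0.10, edgeR's adjusted p = 0.000425). Tex14, a protein of the bridges between germ cells, went from 10.4 ± 1.40 to 12.6 ± 1.79 TPM (log2 fold change 0.26, SE 0.07, edgeR's adjusted p = 0.00803). On the scale of log2(TPM + 1) Tex14 did not pass (limma's adjusted p = 0.143, in a range of 0.00114 to 0.177 over the alternatives).

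The 3 genes of this group that fell were Tex101, Slc25a31 and Dpep3. Tex101, a surface protein of germ cells, stood at 4.12, 3.65 and 4.02 TPM in TKO-serum and at 0.656, 0.415 and 0.372 TPM in TKO-2i (log2 fold change -2.90, SE 0.23). Slc25a31, an ADP/ATP carrier of sperm mitochondria, stood at 5.39, 4.93 and 4.68 TPM in TKO-serum and at 1.19, 1.29 and 0.982 TPM in TKO-2i (log2 fold change -2.02, SE 0.14). Dpep3, a membrane dipeptidase of the testis, went from 2.64 ± 0.255 to 0.704 ± 0.210 TPM (log2 fold change -1.77, SE 0.23). No TKO-2i library of these 3 genes reached a TKO-serum library. The kinase-like gene Stk31 was at 11.4 ± 1.01 TPM in TKO-serum and 10.4 ± 1.27 TPM in TKO-2i (log2 fold change -0.07, SE 0.12). Brdt, the bromodomain protein of the testis, was at 0.641 ± 0.178 and 0.969 ± 0.128 TPM and did not pass (log2 fold change 0.29, SE 0.20), and its value moved with the way transcripts were counted. From protein-coding transcripts alone its log2 fold change was -0.18 with edgeR's adjusted p = 0.584, and from length-scaled TPM it was 0.70 with edgeR's adjusted p = 0.0460, in a range of 0.0460 to 0.703 over the alternatives.

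Some of the 41 genes share sequence with others. Of the 31-base words in its transcripts, Hormad1 shares 31.5% with Gm15529, which was at 1.53 ± 0.158 TPM in TKO-serum and 0.923 ± 0.354 TPM in TKO-2i. Rpl10l shares 23.4% of them with Gm14460, which was at 0 in all 6 libraries, and under 1% with Rpl10, which was at 729 ± 19.8 TPM in TKO-serum and 629 ± 76.5 TPM in TKO-2i. Sycp1 shares 13.1% with Sycp1-ps1 (0 in all 6 libraries) and Tex19.1 shares 6.31% with its neighbour Tex19.2 (2.39 ± 0.289 TPM in TKO-serum and 3.53 ± 0.321 TPM in TKO-2i). The levels of these 4 genes are uncertain to the extent that reads were divided between copies. The exons of Sycp3 overlap those of Chpt1 on the opposite strand over 660 of 1264 bases, and those of Tdrkh overlap Oaz3 over 2255 of 6142 bases. Dpep3 and Piwil4 overlap opposite-strand genes over 119 and 137 bases. The library kit keeps the strand, but whether the counting used it is not given in the sources used here. Chpt1 rose from 8.85 ± 0.960 to 15.7 ± 1.47 TPM while Sycp3 fell, and Oaz3 was under 0.2 TPM in every library. Gm45752, the gene opposite Dpep3, fell with it, from 0.855 ± 0.0726 to 0.118 ± 0.0116 TPM (log2 fold change -2.79, SE 0.19).

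Position was looked at because genes of chromosomes 6 and 11 were shifted upward as a whole in TKO-2i, with median log2 fold changes of 0.41 over 866 genes and 0.26 over 1399 genes. The medians of the other autosomes and of chromosome X lay between -0.15 and 0.05. On chromosome 6 are Asz1, Stra8 and Stk31, and on chromosome 11 are Hormad2, Meioc, Tex14 and Tex19.1. The log2 fold changes of Hormad2 (0.24) and Tex14 (0.26) equal the median of their chromosome within 1 SE, and that of Tex19.1 (0.60) lies above it. Minus the median of the chromosome, Stra8 goes from -0.62 to -1.03, Stk31 from -0.07 to -0.48, Asz1 from -1.06 to -1.47 and Meioc from -1.67 to -1.93. The part of the shift in these values was not tested. Off these 2 chromosomes 6 genes rose and 19 fell among 33 tested, with a median of -0.54, where 29% of all genes tested off them rose and 32.1% fell, with a median of -0.02. The 19 include Tdrd1 and Meiob, which were kept for the test by their TKO-serum counts.

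Promoter windows of 300 bases, from 250 before to 50 after the start in RefSeq GRCm38.p6, were found for 36 of the 41 genes. They were not found for Piwil2, Rnf17, Tex15, Spo11 and Meiob. The windows of Stag3, Mei1 and Brdt, which are counted below, lie 18667, 12479 and 28643 bases from the start of the most abundant transcript, and those of Stag3 and Brdt hold CACGTG. The CpG content of a window, as observed over expected from its C and G, had a median of 0.68 over the 36 windows (0.69 for the 9 genes that rose, 0.74 for 18 that fell and 0.57 for 9 that were not called), beside 0.71 over 15768 windows of all genes tested and 0.384 over all 32851 windows of the table. The E-box letters CACGTG, which read alike on both strands, were in 15 of the 36 windows (41.7%), in 9.50% of windows of all genes tested and in 7.15% of all windows. They were in 8 of 18 windows of genes that fell, in 2 of 9 of genes that rose and in 5 of 9 of genes that were not called. The letters TCCCGC on either strand, part of the motif of E2f factors, were also in 15 of the 36 windows (41.7%), in 32.8% of windows of all genes tested and in 20% of all windows. They were in 7 of 18 windows of genes that fell, in 6 of 9 of genes that rose and in 2 of 9 of genes that were not called. Both motifs contain a CpG, and a match describes these letters and not a bound site.

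The 250 bases before the start are shown, 5′ to 3′ on the strand of the gene with each CpG in capitals, for 4 genes that span the result. Dazl (ENSMUSG00000010592) had the largest rise, and Fkbp6 (ENSMUSG00000040013) rose with a difference between transcripts that was not tested. Tex19.1 (ENSMUSG00000039329) had the highest mean level and Mael (ENSMUSG00000040629) fell most.
Dazl, minus strand, chr17:50293621-50293870: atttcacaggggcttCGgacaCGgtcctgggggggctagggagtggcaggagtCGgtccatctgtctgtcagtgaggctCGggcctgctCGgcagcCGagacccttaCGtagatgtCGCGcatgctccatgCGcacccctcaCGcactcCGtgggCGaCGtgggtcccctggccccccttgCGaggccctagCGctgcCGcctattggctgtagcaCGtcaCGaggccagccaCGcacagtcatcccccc
Fkbp6, minus strand, chr5:135350045-135350294: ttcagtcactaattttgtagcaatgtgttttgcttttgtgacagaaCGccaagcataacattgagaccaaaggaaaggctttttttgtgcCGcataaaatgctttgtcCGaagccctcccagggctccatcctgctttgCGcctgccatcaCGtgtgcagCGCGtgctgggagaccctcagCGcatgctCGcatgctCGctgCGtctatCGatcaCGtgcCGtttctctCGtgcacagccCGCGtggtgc
Tex19.1, plus strand, chr11:121145893-121146142: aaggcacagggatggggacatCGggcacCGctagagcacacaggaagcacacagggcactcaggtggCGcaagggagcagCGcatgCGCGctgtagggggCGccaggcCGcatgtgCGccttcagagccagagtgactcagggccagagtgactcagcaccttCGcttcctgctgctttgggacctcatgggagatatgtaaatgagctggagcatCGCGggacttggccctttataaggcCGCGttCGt
Mael, minus strand, chr1:166238745-166238994: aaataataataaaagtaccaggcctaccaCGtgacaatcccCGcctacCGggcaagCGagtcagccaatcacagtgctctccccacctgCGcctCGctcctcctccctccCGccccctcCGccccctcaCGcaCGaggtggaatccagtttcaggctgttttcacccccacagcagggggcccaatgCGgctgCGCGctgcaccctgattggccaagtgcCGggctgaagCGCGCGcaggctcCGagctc
These stretches hold 20 CpGs for Dazl, 17 for Fkbp6, 15 for Tex19.1 and 18 for Mael, so genes of opposite direction were alike in CpG number. In the 300-base windows CACGTG occurs at 2 places for Fkbp6 and 1 for Mael and was not found for Dazl and Tex19.1, and TCCCGC occurs at 2 places for Mael and 1 for Tex19.1 and was not found for Dazl and Fkbp6.

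Further genes of the same processes were also followed. Of 13 further piRNA pathway genes, 11 were tested, 7 fell and 1 rose, where 30.6% of all genes tested fell and 31.9% rose. The most abundant were Wdr77, Prmt5 and Pnldc1. Wdr77, the partner of the arginine methyltransferase Prmt5, fell by 0.25 on the log2 scale (SE 0.06), and Prmt5 (109 TPM on average in each medium) and Pnldc1, which trims piRNAs, did not pass. Pld6, a nuclease of piRNA production, rose by 0.80 (SE 0.12), which is 0.54 minus the median of chromosome 11. Henmt1, which methylates piRNA ends, had 26, 30 and 30 estimated counts in TKO-serum and 1, 1 and 2 in TKO-2i. Its fall passed and is counted among the 7, but these counts do not give its size. Henmt1 was kept for the test by its TKO-serum counts, so it does not bear on the count of falls. Of 32 further meiosis genes, 30 were tested, 10 rose and 10 fell, near the shares of 31.9% and 30.6% over all genes tested, and the median of their log2 fold changes was 0.01, beside 0.01 over all genes tested. The most abundant were Syce2 of the central element (132 TPM in TKO-serum and 117 TPM in TKO-2i, not passed), Sun1 of the nuclear envelope (log2 fold change 0.36, SE 0.06) and Ccnb1ip1, a factor of crossing over (log2 fold change -0.37, SE 0.08). The largest rise was that of the crossover protein Msh5 (1.31, SE 0.17) and the largest fall that of Syce3 of the central element (-3.55, SE 0.27), on 5 to 12 estimated counts a library in TKO-2i. Syce3 and 1 other of the 10 genes that fell were kept for the test by their TKO-serum counts.

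Of 14 regulators of primordial and gonadal germ cells, 10 were tested, 6 rose and 3 fell, where 31.9% of all genes tested rose and 30.6% fell. Their summed level was 163 ± 2.32 TPM in TKO-serum and 251 ± 7.14 TPM in TKO-2i. Most of this difference lay in Kit, so the sum does not describe the list as a whole. Kit, the receptor of stem cell factor, rose from 23.9 to 93.7 TPM (log2 fold change 2.13, SE 0.05), Dppa3 by 0.48 (SE 0.10) and Tfap2c by 0.51 (SE 0.07). Dppa3 lies on chromosome 6, and minus its median the value is 0.07. Zbtb16, a factor of spermatogonial stem cells, had the largest rise (2.97, SE 0.26) from 0.0691 to 0.541 TPM, and Prdm1, which specifies primordial germ cells, the largest fall (-2.50, SE 0.07) from 10.1 to 1.61 TPM. All 20 genes for repressors of germline genes, which include a Polycomb complex with Mga, Max, L3mbtl2, Pcgf6 and E2f6 and enzymes of H3K9 methylation, were expressed in both media. Of these 9 rose and 5 fell, beside the same shares for all genes tested. Trim28 fell by 0.43 (SE 0.06) from 1285 TPM, Cbx3 rose by 0.73 (SE 0.05), or 0.32 minus the median of chromosome 6 on which it lies, and Wdr5 by 0.79 (SE 0.05). E2f6, which binds germline promoters, had the largest rise (0.83, SE 0.05) and L3mbtl2 the largest fall (-0.60, SE 0.06).

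Other cell types were followed by marker lists, since in bulk RNA fewer cells of a type and less RNA per cell cannot be told apart. Of 9 markers of 2-cell-like cells all fell, where 30.6% of all genes tested did, but 7 of the 9 had under 10 estimated counts in at least 1 TKO-2i library and were kept for the test by their TKO-serum counts. Their summed level was 52.5, 62.8 and 59.6 TPM in TKO-serum and 2.17, 2.04 and 1.79 TPM in TKO-2i. Zscan4f was the most abundant, at 23.1 TPM on average in TKO-serum, and is uncertain since it belongs to a family of near-identical copies. Of 6 primitive endoderm markers 5 fell, where 30.6% of all genes tested did. Sox7 among them had 4 to 7 estimated counts a library in TKO-2i and was kept for the test by its TKO-serum counts. Their summed level was 14.4, 17.4 and 19.0 TPM in TKO-serum and 4.76, 5.75 and 4.64 TPM in TKO-2i, with Dab2 the most abundant. Of 5 trophoblast markers 3 rose and 1 fell, where 31.9% of all genes tested rose and 30.6% fell, and their sum, led by Tfap2a, was 3.52, 4.27 and 3.94 TPM in TKO-serum and 16.0, 16.9 and 16.7 TPM in TKO-2i. The part of these cell types in the values of the 41 genes was not tested.

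Markers of gonad and feeder cells were followed too. None of 8 spermatid markers had enough counts to be tested. Their summed level was 0.262, 0.104 and 0.445 TPM in TKO-serum and 0.0369, 0 and 0.0492 TPM in TKO-2i, with Tnp1 the most abundant, and Prm1 and Akap4 had no count in any library. Of 5 somatic gonad markers 4 were tested and 2 rose, where 31.9% of all genes tested rose, and their sum was 6.86, 6.84 and 7.66 TPM in TKO-serum and 11.1, 21.7 and 14.0 TPM in TKO-2i, of which Insl3 made up 78.4% in TKO-serum and 87.8% in TKO-2i, while Cyp17a1 had at most 1 count in any library. Of 6 fibroblast markers, which would mark feeder cells, 3 were tested and 2 fell, where 30.6% of all genes tested fell, with a sum of 5.81, 6.34 and 5.86 TPM in TKO-serum and 4.12, 4.75 and 4.55 TPM in TKO-2i. Thy1 made up most of that sum, and Dcn, Lum and Postn were under 0.3 TPM in every library.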

How the data were processed

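The authors deposited 1 file a library with an estimated count and a TPM for each transcript, in the column layout that salmon writes. The tool that made these estimates, its version and its use of strand are not given in the sources used here. The paper names the aligner TopHat and RPKM values per gene, which these files do not hold. The submitters' processing notes name the build mm10. Of 136288 transcripts, 136100 matched GENCODE mouse M21, and their estimated counts and TPM were summed per gene. Estimated counts were rounded, filtered with filterByExpr, scaled by TMM and compared with edgeR 4.0.16 (glmQLFit and glmQLFTest, R 4.3.3) over all genes, with Benjamini-Hochberg adjustment and a threshold of 0.05. The test was checked on simulated counts. An exact permutation test of 3 against 3 libraries cannot go below 0.1 and was not used. Levels between genes were compared in TPM. A gene at 0 could still have 3 counts, which is 0.0578 to 0.0784 CPM in these libraries, for counting error alone. Alternatives used DESeq2 1.42.0, limma 3.58.1, other filters, scalings and transcripts, a replicate block and each library left out.

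All 41 genes were named. Of the other lists the text could name the 3 most abundant genes and the largest rise and fall, and any gene of a list of up to 5. Of the marker lists other than that of mESCs it names the most abundant gene and some genes at or near 0, and gives the rest by counts and sums. Genes and lists were chosen with earlier results of these data known. A SD is over 3 libraries. Promoter sequences are from RefSeq GRCm38.p6.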

Additional observations from a re-analysis of the deposited data

How the results depend on the processing

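Over 15 alternative settings the counts of germline and meiosis genes stayed between 6 and 9 higher and between 19 and 24 lower in TKO-2i. The lowest number of rises came with limma on log2(TPM + 1) and on log2(TPM + 0.1), where Hormad2, Stag3 and Tex14 did not pass. In these settings 4160 and 3955 of all 18177 genes tested rose, beside 5804 in the main setting. With each library left out in turn, 8 to 9 genes were higher and 19 to 24 lower, the median log2 fold change ran from -0.68 to -0.31, and 10152 to 12568 of all genes were called. Leaving aside the replicate block, 6 of the 9 rises and 19 of the 21 falls passed in every setting in which the gene was fitted, and Hormad2, Stag3, Tex14, Rnf17 and Sohlh2 did not. The direction turned in 4 cases, none of which passed: Brdt was -0.18 with protein-coding transcripts only, Syce1 was 0.0236 without TKO-2i replicate 2, and Stk31 was 0.0002 without TKO-2i replicate 3 and 0.0406 without TKO-serum replicate 2. With each library left out, Syce1 ran from -0.142 to 0.0236 and Stk31 from -0.1885 to 0.0406. The causes were not tested.

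Minus the median of its chromosome, the median log2 fold change was -0.51. Leaving out chromosomes 6 and 11 was chosen after seeing the data. At 0.5 TPM in place of 1 TPM, 37 genes were expressed in TKO-serum, and at 2 TPM 33 were. In TKO-2i 33 and 22 were. At 0.5 TPM 5 genes were expressed in TKO-serum and not in TKO-2i, and 1 gene, Brdt, in TKO-2i and not in TKO-serum. At 2 TPM 11 were expressed in TKO-serum and not in TKO-2i, and none the other way. Both thresholds were chosen after seeing the data for the number expressed in TKO-serum and not in TKO-2i. With each library left out that number at 1 TPM was 5 to 7, with 5 without TKO-2i replicate 3. Samples of the same replicate number correlated in their deviations by 0.242, 0.329 and 0.014. Samples of unlike number were not compared in this way, so these values do not show whether the numbers pair the samples. With a replicate block 9 genes were higher, 24 were lower and 12539 of all genes were called. Counts limit Spo11, Mei1, Meiob and Tdrd1, which had under 20 counts in each TKO-2i library.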
